A study of Mus musculus with 8 samples.

Results

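10 named macrophage genes, of the 24421 genes listed for these cultures, were followed in 8 RNA-seq libraries of mouse calvarial cells. They are Cd68, Mpeg1, Ctss, Laptm5, Lyz2, Lyz1, Tyrobp, Fcer1g, Cd53 and Mrc1. They were chosen by their names as macrophage genes and selected on their deposited values, because each of the 80 equals a whole number of reads to within 0.02 of a read. Wholeness is thus no result.

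The cultures were osteoblastic cells released enzymatically from the skull bone of newborn C57BL/6 mice, 0 to 3 days old. WT cells and cells of Def6-/- mice, which lack the guanine nucleotide exchange factor Def6, were sequenced at day 0 and at day 12 of osteogenic culture, when ascorbic acid and β-glycerophosphate drive osteoblast differentiation. Each of the 4 groups (WT day 0, Def6-/- day 0, WT day 12, Def6-/- day 12) had 2 libraries, which the study calls biological replicates. No source used here says whether these came from separate animals or cultures, so p-values measure only the spread between libraries. The labels name no step that removed blood cells before sequencing. Def6 had 112 to 186 reads in the WT libraries and 0 to 2 in the Def6-/- libraries. Osteoblast genes were present, but not all of them rose. Col1a1 had 33448 to 78255 reads at day 0 and 127312 to 155105 at day 12. Ibsp (bone sialoprotein) went from between 2 and 26 reads to between 1551 and 6054. Spp1 had 7155 to 17083 and then 4773 to 10311 reads, and Runx2 129 to 309 and then 256 to 323. Of 10 listed osteoblast markers, 6 passed the test described below as higher at day 12 in each genotype. Col1a1, Spp1 and Runx2 did not. Of all genes tested, 12.1% passed as higher in WT and 11.1% in Def6-/-. Each library held 2414745 to 3482617 reads on genes.

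Macrophages are phagocytes of the myeloid lineage that live in nearly every tissue, bone included, and osteoclasts, the cells that resorb bone, form from the same lineage. They carry receptors that signal through adaptors with an immunoreceptor tyrosine-based activation motif (ITAM), and they digest what they take up in lysosomes. Bone-lining macrophages are known to accompany osteoblasts, and calvarial cell preparations are known to contain macrophages. The members fall into 3 roles. Cd68 (a lysosomal membrane glycoprotein), Mpeg1 (perforin-2, a pore former), Ctss (the protease cathepsin S), Laptm5 (a lysosomal membrane protein of blood cells) and the lysozymes Lyz2 and Lyz1 serve digestion and killing. Tyrobp (DAP12) and Fcer1g (the Fc receptor gamma chain) are the ITAM adaptors. Cd53 (a tetraspanin of leukocytes) and Mrc1 (the mannose receptor CD206) lie at the cell surface.

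Lyz2 and Lyz1 lie side by side on the minus strand of chromosome 10 (GENCODE M21, GRCm38), Lyz2 at 117277331 to 117282321 and Lyz1 at 117287797 to 117292868. Their coding sequences of 447 bases differ at 22 bases, a 95.1% identity, and 15.4% of the 50-base windows of the Lyz2 transcript occur unchanged in Lyz1. Reads from such stretches cannot be given to either gene with certainty, so the split between the pair is uncertain, above all for Lyz1, the lower of the pair. The first 180 coding bases of both, read from the GENCODE transcripts, are shown because they hold 15 of those differences, in capitals.
Lyz2: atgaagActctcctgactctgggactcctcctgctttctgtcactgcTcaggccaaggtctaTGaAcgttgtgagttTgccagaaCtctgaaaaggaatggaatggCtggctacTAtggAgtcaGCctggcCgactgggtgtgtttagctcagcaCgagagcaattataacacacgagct
Lyz1: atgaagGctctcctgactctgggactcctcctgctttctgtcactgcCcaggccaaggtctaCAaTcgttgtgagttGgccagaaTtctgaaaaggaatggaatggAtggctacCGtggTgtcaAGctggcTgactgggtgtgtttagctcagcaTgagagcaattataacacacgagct

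The transcription factor PU.1 (Spi1) is the known master regulator of myeloid genes, and its binding sites centre on the letters GAGGAA. RefSeq promoter windows (GRCm38.p6, 250 bases before to 30 after the start) were at hand for 9 members. These letters, on either strand, occurred in 5 of the 9 windows (Cd68, Cd53, Laptm5, Mrc1 and Ctss), and in 26.0% of all 32851 windows of this length. The 3 windows with more than 1 match are shown with the matches in capitals, TTCCTC being the same letters on the other strand. A match describes the letters only.
Cd53 promoter, chr3:106790120-106790399, minus strand: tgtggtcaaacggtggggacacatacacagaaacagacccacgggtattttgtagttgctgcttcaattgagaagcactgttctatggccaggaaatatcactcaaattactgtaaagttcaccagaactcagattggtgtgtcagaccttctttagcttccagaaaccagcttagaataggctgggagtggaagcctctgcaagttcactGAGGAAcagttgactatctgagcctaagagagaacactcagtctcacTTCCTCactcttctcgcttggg
Mrc1 promoter, chr2:14229164-14229443, plus strand: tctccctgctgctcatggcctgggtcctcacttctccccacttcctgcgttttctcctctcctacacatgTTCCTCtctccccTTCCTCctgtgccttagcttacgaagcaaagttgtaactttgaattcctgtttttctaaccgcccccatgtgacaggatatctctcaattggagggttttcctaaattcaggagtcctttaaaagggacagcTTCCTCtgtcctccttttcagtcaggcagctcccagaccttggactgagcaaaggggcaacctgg
Ctss promoter, chr3:95526536-95526815, plus strand: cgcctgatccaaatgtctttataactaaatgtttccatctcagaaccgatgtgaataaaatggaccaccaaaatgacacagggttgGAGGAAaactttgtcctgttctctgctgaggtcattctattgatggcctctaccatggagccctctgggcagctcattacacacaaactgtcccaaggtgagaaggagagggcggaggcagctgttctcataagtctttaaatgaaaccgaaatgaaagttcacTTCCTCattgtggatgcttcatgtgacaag

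All 10 genes were higher at day 12 than at day 0 in both genotypes. Levels are given as normalized CPM, that is, reads of a gene per 1000000 reads on genes, scaled by the trimmed mean of M-values (TMM). The 10 genes together stood at 238 and 376 normalized CPM in the WT libraries at day 0 and at 3100 and 6147 at day 12. In Def6-/- cultures they stood at 172 and 288, then at 3379 and 3835. They took 0.0173 to 0.0371% of the reads on genes at day 0 and 0.299 to 0.620% at day 12. More macrophages and more RNA of these genes per cell cannot be told apart in such bulk libraries. In limma's moderated test on log2(normalized CPM + 1), 10 of 10 passed an adjusted p of 0.05 as higher in WT, where 12.1% of the 12340 genes tested did. In Def6-/- cultures 10 of 10 passed, where 11.1% of all genes did. Their median log2 difference was 3.44 in WT and 3.37 in Def6-/-, beside -0.04 and -0.06 for all genes tested. In all 10 both day 12 libraries of a genotype lay above both of its day 0 libraries, as for 27.3% of all genes in WT and 31.2% in Def6-/-. Of the 10, 9 reached the filter of 1 deposited CPM already in a day 0 group. Lyz1 reached it only at day 12, so that it entered the test through the groups in which it is high.

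**Figure D1:**
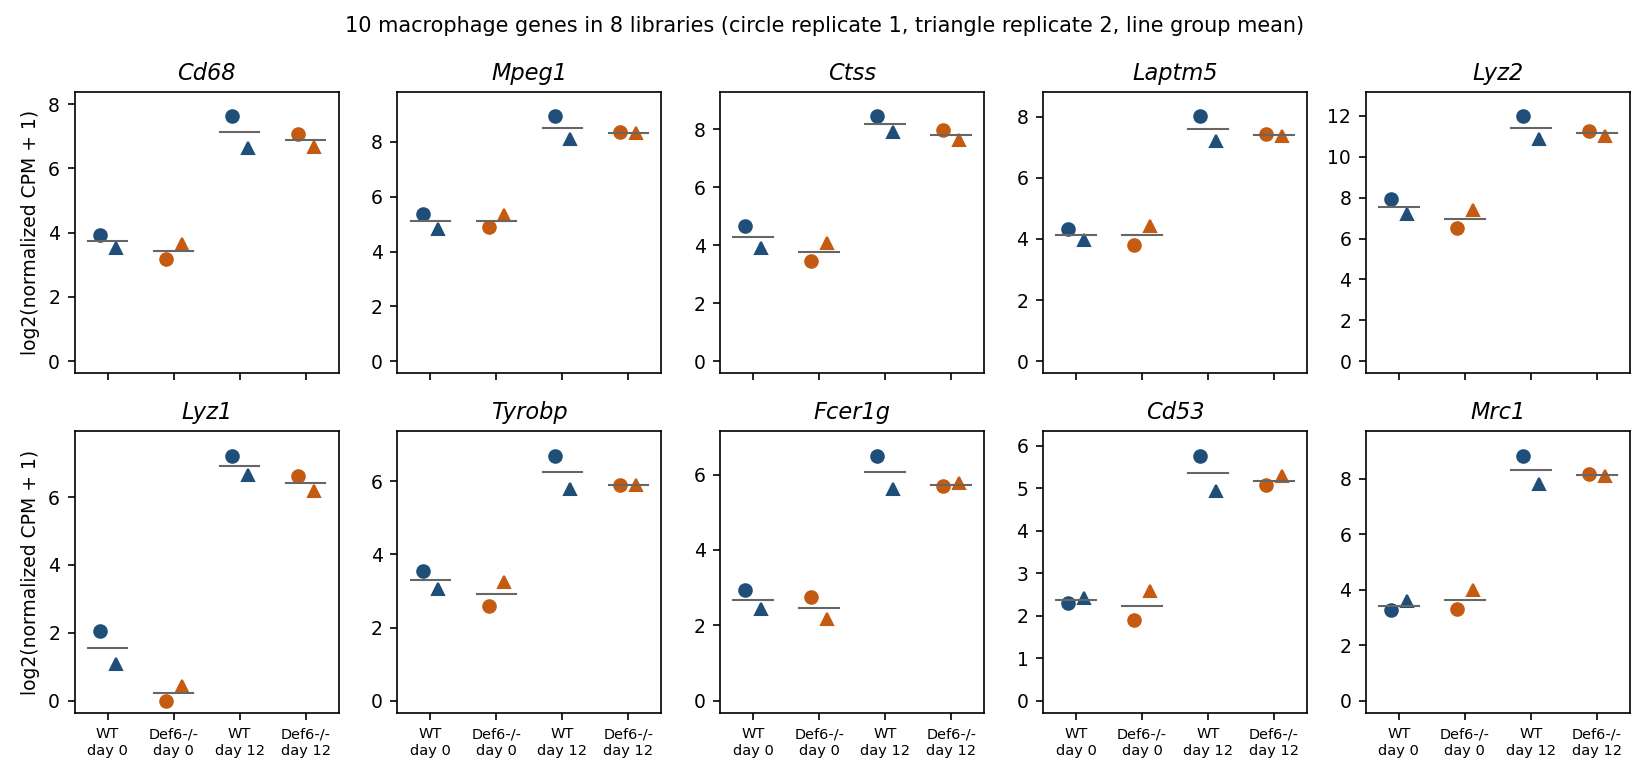
Levels of the 10 genes in each of the 8 libraries, as log2(normalized CPM + 1), by group. Circles are replicate 1, triangles replicate 2 and lines the mean of both; every day 12 library lies above every day 0 library, and the WT replicate 1 circle is the highest day 12 point in each panel.

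Among the genes of digestion, Mpeg1 was found at 40.8 and 27.3 normalized CPM in the WT libraries at day 0 and at 28.5 and 39.1 in the Def6-/- libraries. At day 12 it stood at 487 and 277 in WT and at 325 and 319 in Def6-/-. The days did not overlap in either genotype, and the log2 difference was 3.42 in WT and 3.23 in Def6-/- (SE 0.30 each). Cd68 went from 14.1 and 10.6 to 195 and 98.5 normalized CPM in WT and from 8.09 and 11.6 to 133 and 101 in Def6-/-. Its group mean rose from 12.3 ± 2.53 to 147 ± 68.4 in WT (SD, n = 2), 11.9 times, and 11.9 times in Def6-/-.

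Ctss, whose product trims the invariant chain of MHC class II, was at 24.3 and 13.8 normalized CPM in WT and 10.0 and 15.8 in Def6-/- at day 0. It reached 346 and 236 in WT and 251 and 198 in Def6-/- at day 12. The log2 differences were 3.89 and 4.04 (SE 0.33). Laptm5 went from 18.8 and 14.6 to 257 and 145 in WT and from 13.1 and 20.4 to 174 and 165 in Def6-/-, a 12.04-fold and a 10.1-fold rise of the group means.

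Lyz2 had the highest level of the 10 in every library. It was at 245 and 144 normalized CPM in WT and 89.7 and 169 in Def6-/- at day 0, and at 4015 and 1887 in WT and 2426 and 2096 in Def6-/- at day 12. Per kilobase of its transcript the day 12 mean was 2242 in WT and 1718 in Def6-/-. Ctss followed at 214 and 165 per kilobase. Cd53 was the lowest of the members on that scale at day 12, at 23.8 and 20.2. Lyz1 had 8 and 3 reads in the WT libraries and 0 and 1 in the Def6-/- libraries at day 0. At day 12 it had 520 and 241 reads in WT and 242 and 174 in Def6-/-. The summed reads rose 61.6-fold in WT (95% counting interval 34.2 to 124), and 461-fold in Def6-/- (82.4 to 18268), an interval that is wide because the day 0 side holds 1 read. Lyz1 reads were 0 to 1.28% of the Lyz2 reads at day 0 and 3.45 to 5.24% at day 12.

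The ITAM adaptors rose in both genotypes. Tyrobp, which pairs with TREM and similar receptors, had levels of 10.6 and 7.28 normalized CPM in WT and 5.01 and 8.45 in Def6-/- at day 0. At day 12 it stood at 103 and 54.98 in WT and at 59.4 in both Def6-/- libraries. Its log2 differences were 2.96 and 3.00 (SE 0.36), and its group means rose 8.84-fold and 8.82-fold. Fcer1g went from 6.67 and 4.37 to 89.4 and 48.4 in WT and from 5.78 and 3.52 to 50.5 and 54.0 in Def6-/-, log2 differences of 3.38 and 3.27.

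Of the surface genes, Cd53 went from 3.92 and 4.37 to 53.2 and 29.5 normalized CPM in WT and from 2.70 and 4.93 to 32.5 and 37.8 in Def6-/-. These values rest on 7 to 14 reads at day 0. Mrc1 went from 8.63 and 10.9 to 453 and 225 in WT and from 8.86 and 14.8 to 288 and 276 in Def6-/-. Its group means rose 34.7-fold in WT and 23.8-fold in Def6-/-, and its log2 differences of 4.90 and 4.50 (SE 0.35) were the highest after Lyz1. The adjusted p of the 10 genes ran from 7.38e-05 (Mrc1) to 0.000906 (Tyrobp) in WT.

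**Figure D2:**
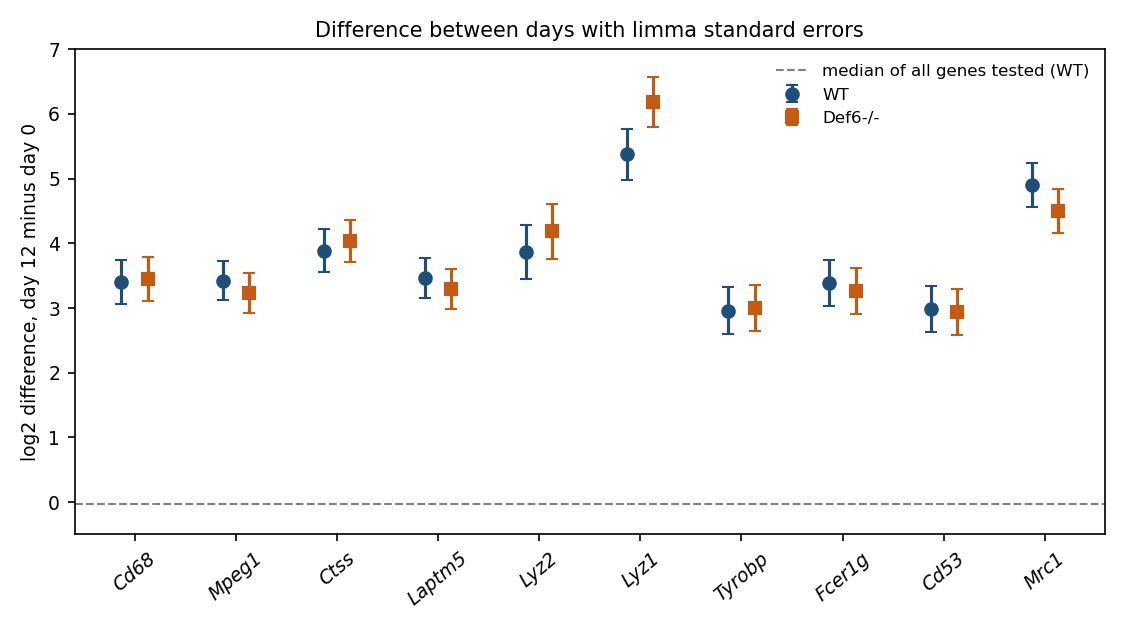
Log2 difference between day 12 and day 0 of each gene in WT (circles) and Def6-/- (squares); bars are limma standard errors, and the dashed line is the median of all genes tested in WT. All 20 points lie between 2.94 and 6.19, and those of Lyz1 and Mrc1 are the highest.

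The proportions among the members also shifted. As a share of the reads of the 8 members without the lysozymes, Mrc1 took 6.75 to 12.5% at day 0 and 20.2 to 22.8% at day 12. Mpeg1 took 29.3 to 34.7% at day 0 and 24.6 to 26.4% at day 12. Tyrobp fell from between 6.10 and 8.28% to between 4.52 and 5.19%, and Laptm5 moved from between 14.7 and 17.2% to between 12.9 and 13.6%. For these 4 genes the day 12 libraries lay on 1 side of all day 0 libraries, while the shares of Cd68, Fcer1g, Cd53 and Ctss overlapped between the days. These shares are descriptions without a test. They sum to 100 over the 8 genes, so a higher share of Mrc1 lowers the others.

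No member passed the test of Def6-/- against WT cultures at day 12. By limma, 0 of 10 passed an adjusted p of 0.05, where 0.0081% of all genes, Def6 itself, did. At an unadjusted p under 0.05 again 0 members passed, beside 1.4% of all genes, and edgeR's quasi-likelihood test and DESeq2 each called 0. The log2 differences were negative for all 10, from -0.53 for Lyz1 to -0.18 for Cd53, with a median of -0.27 beside a median of -0.02 for all genes. The 95% intervals were wide. For Cd68 the interval of the ratio of Def6-/- to WT ran from 0.486 to 1.44, and for Mrc1 from 0.512 to 1.52, so that a difference of that size in either direction was not detectable with 2 libraries a group. In 9 genes the groups overlapped. Lyz1 was lower in each Def6-/- library than in each WT library, as were 17.7% of all genes. In the other direction 15.1% of all genes did not overlap.

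This direction rested on 1 library. WT replicate 1 was above WT replicate 2 at day 12 in each of the 10 genes, from 1.47 times for Ctss to 2.13 times for Lyz2. WT replicate 2 was below both Def6-/- libraries for 8 of the genes, above both for Lyz1 and between them for Ctss. The Def6-/- libraries were closer to each other, with ratios from 0.860 for Cd53 to 1.34 for Lyz1. Without WT replicate 1 the median log2 difference between genotypes was 0.22 and 8 of the 10 genes were higher in Def6-/-, and without WT replicate 2 the median was -0.70. The median rise from day 0 in WT was 3.03 without replicate 1 and 3.91 without replicate 2.

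**Figure D3:**
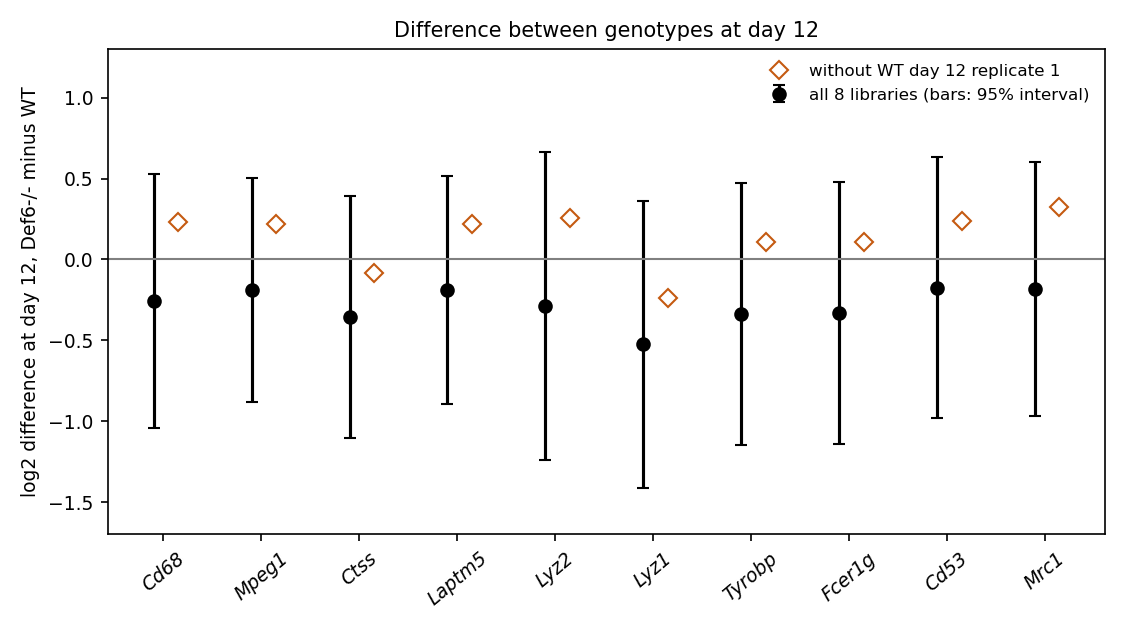
Log2 difference at day 12 between Def6-/- and WT for each gene; filled points with 95% intervals are from all 8 libraries, and open diamonds leave out WT day 12 replicate 1. Every interval spans 0, and 8 of the 10 diamonds lie above 0 while all filled points lie below it.

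The gap between the WT replicates at day 12 was found in other macrophage genes too, but not in all groups. The median log2 gap (replicate 1 minus replicate 2) was 0.85 over the members and 0.81 over 39 further macrophage genes, of which 38 were higher in replicate 1. It was 0.18 over 25 widely expressed lysosomal genes, -0.06 over 10 osteoblast markers and 0.02 over all genes tested. Interferon stimulated genes (ISGs) went the other way, with a median of -0.78 and 13 of 14 higher in replicate 2. Of all genes tested, 7.25% had a gap at or above the lowest among the members. ISGs summed to 735 and 1195 normalized CPM in the WT libraries and 449 and 410 in the Def6-/- libraries at day 12. In this 1 pair, WT replicate 1 had the higher sum of the members and the lower ISG sum. Between the genotypes at day 12 both lists had lower medians in Def6-/-, at -0.27 for the members, which rested on WT replicate 1, and -1.31 for the ISGs. Whether the lists are related was not tested, nor was what sets the gap.

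**Figure D4:**
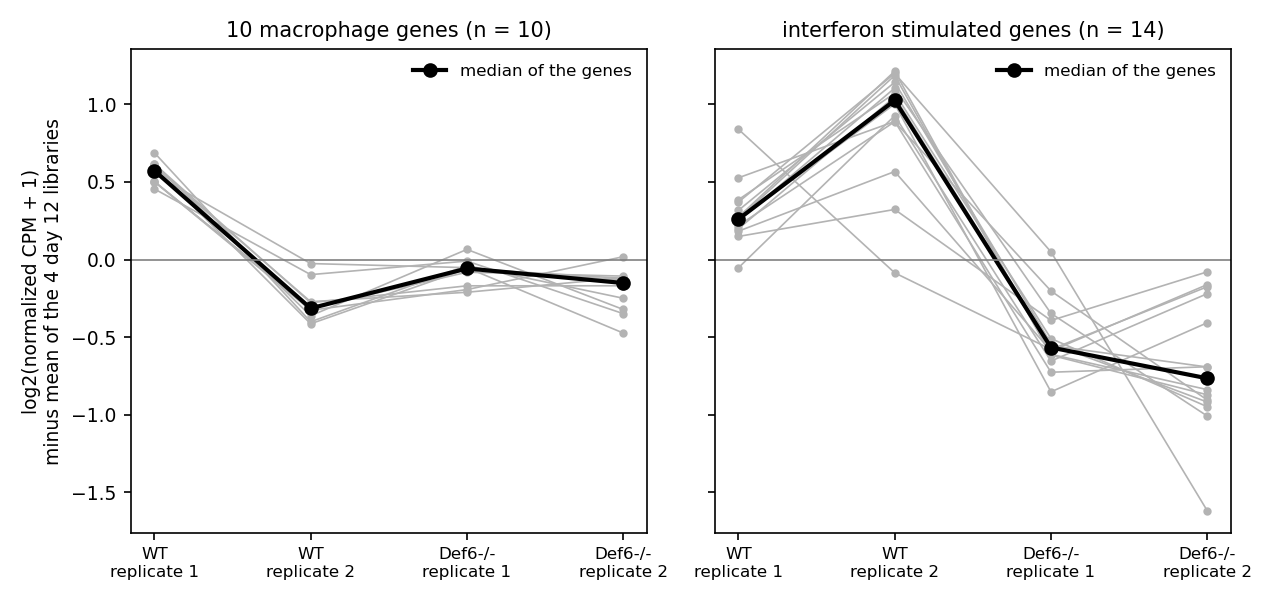
Each gene's log2(normalized CPM + 1) in the 4 day 12 libraries minus its own mean over them, for the 10 macrophage genes and 14 ISGs; grey lines join 1 gene's values and black points are medians. The members are highest in WT replicate 1, where most ISGs are lower than in WT replicate 2.

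At day 0, 0 of 10 members passed an adjusted p of 0.05 between the genotypes by limma, edgeR or DESeq2, beside 0.0081% of all genes by limma. Lyz1 was lower in Def6-/- by -1.34 on the log2 scale (SE 0.39, unadjusted p = 0.0078, adjusted p = 0.905 by limma), on 11 reads in WT and 1 in Def6-/-. It was the 1 member under an unadjusted p of 0.05, beside 2.35% of all genes, and its groups did not overlap, as for 11% of all genes in that direction and 11.8% in the other. The other 9 overlapped and ranged from -0.60 for Lyz2 to 0.22 for Mrc1. Without WT day 0 replicate 2, limma called Lyz1 (-1.83, adjusted p = 0.00298) and Ctss (-0.89, adjusted p = 0.0352), but the same fit called 23.6% of all genes, so that 2 of 10 is near its background. The WT side is then replicate 1 alone, in which 34.9% of all reads were not uniquely aligned, the highest share of the 8 libraries. Its part in these calls was not tested. The rise over the 12 days differed between the genotypes by -0.40 (Mrc1) to 0.81 (Lyz1), and 0 of 10 members passed the test of that interaction at an adjusted p of 0.05 or at an unadjusted one, beside 0% and 1.06% of all genes. edgeR called 1 member at an unadjusted p under 0.05, and DESeq2 called 0, beside 1.05% and 0.365% of all genes.

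Other macrophage genes moved with the members. Of a list of 44, chosen with earlier results of these data known, 43 had whole reads in every library and 39 were tested. In WT 34 and in Def6-/- 35 passed as higher, beside 12.1% and 11.1% of all genes tested, with medians of 2.75 and 2.72. Some of them, such as Fcgr2b, reached the filter of 1 deposited CPM only at day 12. Such genes entered the test through the libraries in which they are high. Spi1, which encodes PU.1, went from between 10 and 16 reads at day 0 to between 72 and 205 at day 12. C1qa, a chain of complement C1q, went from between 21 and 61 to between 242 and 757. Gpnmb, a glycoprotein, went from between 182 and 258 reads to between 1976 and 3978. Which cells carried the Gpnmb reads was not tested. Siglec1, a sialic acid receptor of resident macrophages, went from between 8 and 14 reads to between 210 and 609. Fcgr2b, an inhibitory Fc receptor, had 0 to 4 reads at day 0 and 74 to 204 at day 12. Cx3cr1, the fractalkine receptor, did not pass as higher, with 6 to 19 reads of Cx3cr1 at day 0 and 1 to 9 at day 12. A separate list of 10 macrophage surface markers held 5 genes with whole reads, of which 3 were tested. In both genotypes 2 passed as higher, beside the same shares of all genes. Marco, a scavenger receptor, went from between 3 and 26 reads to between 534 and 1741. Itgax (CD11c) had 0 to 3 reads at day 0 and 15 to 27 at day 12, and reached the filter only at day 12. Cd80, a costimulatory ligand, had 34 to 60 reads at day 0 and 26 to 51 at day 12, with log2 differences of -0.66 and -0.53 that did not pass.

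Genes that work with the ITAM adaptors were tested for 13 of 22 listed. All 13 had positive differences in both genotypes, with median log2 differences of 2.003 and 1.77. Of them, 9 in WT and 7 in Def6-/- passed an adjusted p of 0.05 by limma as higher at day 12. Over all genes tested, 12.1% and 11.1% did. Of the 13, Clec5a, Cd300lb, Fcgr1, Btk, Vav1 and Card9 reached the filter only at day 12. They make up most of the genes that passed in WT and, without Card9, in Def6-/-. They entered the test through the libraries in which they are high, so these counts are a description only. Trem2, a receptor that signals through Tyrobp, went from between 8 and 21 reads to between 100 and 342, and its log2 differences were 3.59 and 3.35. The lectin receptor Clec4d was higher by 2.95 and 3.60. Syk, the kinase that binds phosphorylated ITAMs, had differences of 1.003 and 0.54 with adjusted p of 0.0912 and 0.363 by limma. Lysosomal genes that most cells express showed smaller differences, with medians of 0.59 and 0.60. Of 25, 23 in WT and 22 in Def6-/- had positive differences. The adjusted test was passed as higher by 11 and 10, beside 12.1% and 11.1% of all genes. Ctsb and Psap were higher by 1.53 and 1.24 in WT.

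**Figure D5:**
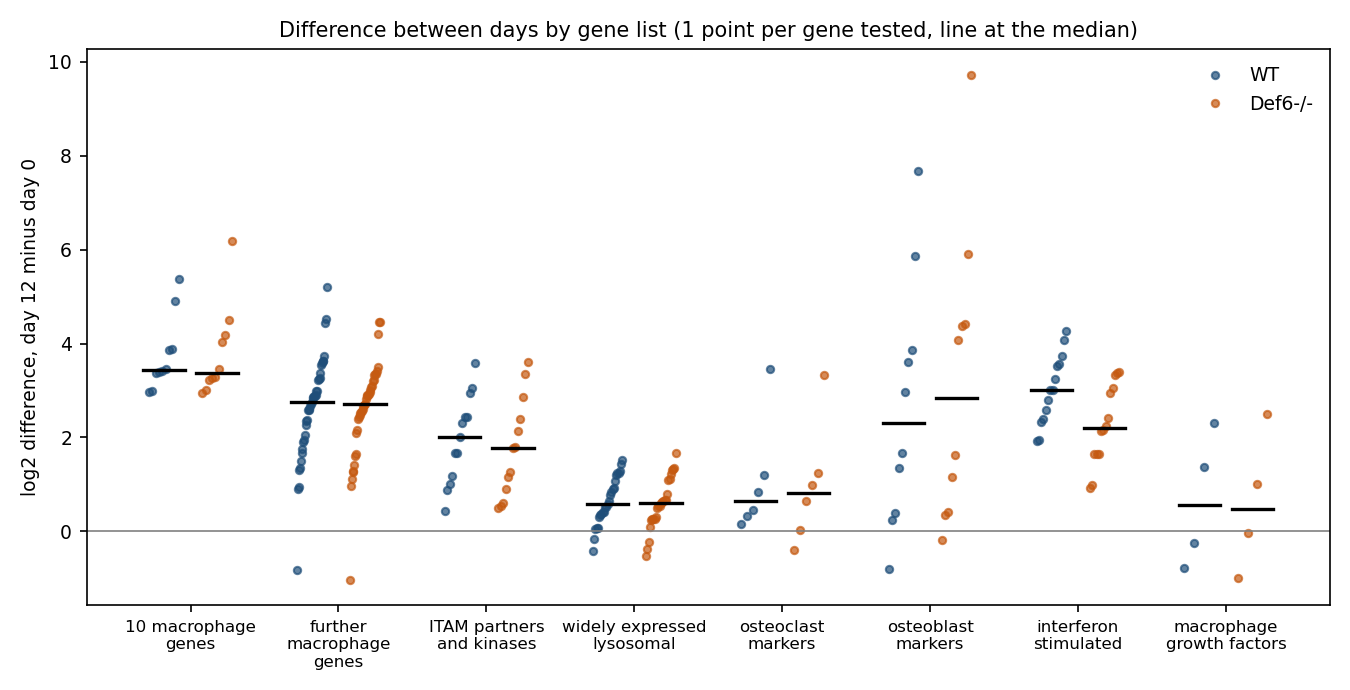
Log2 difference between day 12 and day 0 of each gene tested, by gene list, for WT (blue) and Def6-/- (orange); black lines are medians. The 10 macrophage genes have medians of 3.44 and 3.37, and the widely expressed lysosomal genes of 0.59 and 0.60.

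Of the osteoclast list of 14 genes, 11 had whole reads and 6 were tested. As higher, 2 passed in WT and 1 in Def6-/-, beside 12.1% and 11.1% of all genes tested. Calcr had no read in any library, and Ocstamp, Dcstamp, Car2 and Siglec15 had at most 2. Atp6v0d2, a proton pump subunit also used by macrophages, went from between 0 and 4 reads at day 0 to between 29 and 53 at day 12. Atp6v0d2 passed in both genotypes, and reached the filter only at day 12. Tcirg1, another pump subunit that other cells also express, had 101 to 115 reads at day 0 and 150 to 286 at day 12 and passed in WT (log2 difference 0.85, adjusted p = 0.0182 by limma), with 0.65 in Def6-/- (adjusted p = 0.0532). Clcn7, Nfatc1, Mmp9 and Tnfrsf11a, at 6 to 351 reads over the libraries, did not pass in either genotype. The T cell receptor genes Cd3e, Cd3d and Cd3g and Cd8a had no read, nor did the monocyte marker Ly6c2. Thy1, which stromal cells carry too, went from between 421 and 777 reads to between 1128 and 1808, and Cd4 from 0 to between 5 and 35 reads. Of the T cell list 3 genes were tested. Thy1 and Cd4 passed as higher in both genotypes, beside 12.1% and 11.1% of all genes, and Cd4 reached the filter only at day 12. Of the endothelial list, Pecam1 had at most 3 reads and was not tested. The 2 genes tested, Stab1 and Tek, both passed as higher in WT, beside 12.1% of all genes. Stab1, a scavenger receptor that macrophages also carry, went from between 71 and 129 reads to between 857 and 2991. Tek had 0 to 9 reads at day 0 and 14 to 22 at day 12, and reached the filter only at day 12. Its log2 differences were 1.97 in WT (adjusted p = 0.0345 by limma) and 1.55 in Def6-/- (adjusted p = 0.0817 by limma). Of the B cell, neutrophil, mast cell and dendritic cell lists, 4 genes each were at 0 in every library. The neutrophil genes summed to at most 1.57 normalized CPM at day 0 and 3.28 at day 12, and the dendritic cell genes to at most 3.92 and 6.83. Of growth factors for macrophages, Il34 rose by 2.30 in WT and 2.50 in Def6-/-, and Csf1 (M-CSF), at 1942 to 2455 reads at day 0 and 1054 to 1555 at day 12, fell by 0.77 and 0.98.

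9 genes known in macrophages or osteoclasts held deposited values that are not whole reads and were left out of the tests: Acp5, Adgre1, Cd14, Csf1r, Ctsk, Fcgr3, Itgam, Itgb3 and Ptprc. Of the 114821 positive values for genes, 49 were not whole, all in these 9 genes, 34 of them at day 12. Of the 49, 29 were whole multiples of 0.1 read and 14 more of 0.01 read, to within 0.02 and 0.1 of such a step. Csf1r, the receptor for M-CSF, was listed at 57 to 78 reads at day 0, all whole, and at 78.5 and 23.5 in WT and 29.8 and 30.7 in Def6-/- at day 12. Fcgr3, which signals through Fcer1g, was listed at 10 to 19 and then at 14.3 to 31.4. Ptprc (CD45), carried by all white blood cells, was listed at 8 to 12 and then at 6.9 to 29.5. How these values came to differ in kind from the rest was not tested, and no level or change is read from them.

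Genes outside the members and the gene lists were ranked by how their pattern over the 8 libraries followed the members' mean profile. By Pearson's r on the log2 scale, the most alike of these were Pik3r5, Sepp1, Apoe, Slc11a1, Il10rb, Prkcb, Creg1, Tlr7, Chl1 and Cd36. Their r ran from 0.998 to 0.996. Genes of the lists were not ranked. With days this far apart, r rests on the difference between the days and is a description only. Apoe, the lipoprotein of lipid transport, went from between 100 and 162 reads at day 0 to between 2636 and 6853 at day 12, and Sepp1, selenoprotein P, from between 24 and 43 to between 625 and 1609. Slc11a1, a metal transporter of phagosomes, went from between 14 and 28 to between 180 and 512 reads. Within the members, each gene's r with the mean of the others was at least 0.985.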

How the data were processed

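Per the labels, poly-A RNA libraries were sequenced and processed by the authors with fastp, HISAT2 (mm10), HTSeq and edgeR, versions not given in the sources used here. The authors deposited CPM per gene and library, relative to all reads HTSeq handled. Its summary rows, 64.7 to 71.2% of that total, were left out. Dividing each CPM by the value of 1 read gave whole reads for 99.96% of positive values (tolerance 0.02 reads). 9 genes with other values were left out of totals and tests. Libraries held 2414745 to 3482617 reads on genes. A count of 3 reads equals 0.854 to 1.25 normalized CPM, counting error only.

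CPM was rescaled to reads on genes with TMM (edgeR 4.0.16). log2(CPM + 1) of genes with a mean of at least 1 deposited CPM in at least 1 group was tested with limma 3.58.1 (R 4.3.3) over all 8 libraries, with Benjamini-Hochberg adjustment, after a test on simulated data. Alternatives included edgeR's quasi-likelihood test and DESeq2 1.42.0 on the recovered reads. The pairs of libraries differed beyond counting noise, most of all in WT at day 0. There the chi-square per gene was 31.9, beside 4.28 to 11.8 in the other groups. All 8 libraries share 1 estimate of the spread, so that pair also enters the genotype test at day 12. The members and lists were chosen with earlier results of these data known. Genes named are the 10 members, Def6, the 10 most alike genes outside the lists and genes without whole reads. Of each list, the highest genes or those at 0 are also named. Spi1, Syk, Fcgr2b, Siglec1, C1qa, Gpnmb, Cx3cr1, Marco, Itgax, Cd80, Tcirg1, Clcn7, Nfatc1 and Mmp9 were named after their values were seen. So were Tnfrsf11a, Trem2, Clec4d, Atp6v0d2, Il34, Csf1, Ctsb, Psap, Col1a1, Ibsp, Thy1, Cd4, Stab1, Tek and Pecam1. Clec5a, Cd300lb, Fcgr1, Btk, Vav1, Card9, Spp1, Runx2, Cx3cl1 and Ccl2 were named in the same way.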

Additional observations from a re-analysis of the deposited data

How the results depend on the processing

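With 2 libraries a group, single libraries set the genotype values. With Lyz1 and Lyz2 apart, each alternative that left out no single library called 10 of 10 members higher at day 12 in both genotypes. With the pair summed, 9 of 9 were called. Over these alternatives 8.61 to 20.96% of all genes were called in either direction in WT. In Def6-/- cultures the share was 12.3 to 32.63%, so the background of these counts varied with the setting. All values of the rise kept their direction, also with 1 library left out (198 per genotype). Leaving out 1 library gave median rises of 3.03 to 3.91 in WT and 3.35 to 3.64 in Def6-/-, genotype medians of -0.70 to 0.22 at day 12 and -0.51 to -0.08 at day 0, and interaction medians of -0.41 to 0.40. Members called at an adjusted p were 0 to 2 at day 0 over those fits, 0 at day 12 and 0 for the interaction. Those at an unadjusted p under 0.05 were 0 to 3 at day 0 and 0 to 1 for the interaction. The upper counts come from the fit without WT day 0 replicate 2, which called 23.6% of all genes at an adjusted p and 37.1% at an unadjusted one at day 0, and 10.8% and 26.8% for the interaction.

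Leaving out 1 library moved the day 12 genotype difference from -0.73 to 0.23 for Cd68, -0.81 to 0.26 for Lyz2, -0.77 to 0.11 for Tyrobp, -0.74 to 0.11 for Fcer1g, -0.57 to 0.24 for Cd53, -0.58 to 0.22 for Laptm5, -0.67 to 0.32 for Mrc1 and -0.58 to 0.22 for Mpeg1, each positive only without WT replicate 1. At day 0 it ran from -0.48 to 0.19 for Cd53, -0.32 to 0.26 for Laptm5, -0.28 to 0.28 for Mpeg1, -0.52 to 0.079 for Fcer1g and -0.12 to 0.54 for Mrc1. At day 0, with CPM as deposited Laptm5 was 0.093 and Mpeg1 0.11, with edgeR Laptm5 was 0.013, and Mpeg1 was 0.013 without TMM and 0.00020 with a pseudocount of 0.1. Members at an unadjusted p under 0.05 numbered 1 at day 12 with only the groups compared, beside 4.75% of all genes. At day 0 they numbered 0 with CPM as deposited, with the lysozymes summed, with only the groups compared (where Lyz1 missed the filter) and with a pseudocount of 5. For the interaction they numbered 1 with edgeR and with a pseudocount of 0.1, beside 1.05% and 1.13% of all genes. The cause was not tested.

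The replicate numbers pair no samples by the labels, and deviations of same-numbered libraries correlated at 0.00108 to 0.326 over the 6 pairs of groups. With the replicate number as a block the members' medians stayed at 3.44 and 3.37 for the days, -0.27 and -0.26 for the genotypes, and the members' calls did not change.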
